A study of Mus musculus with 2 samples.

Results

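*Slc1a3*, *Slc1a5*, *Slc7a11* and *Glul* are 4 genes that handle glutamate and glutamine, and they are described here in brain microglia, the resident macrophages of the brain. They were selected on values measured in these same libraries, with their levels by library, sex and cell state already known, so the difference between the libraries is given as a description. They are 4 of the 32285 genes in the count table, and 11910 of those genes had a count in at least 1% of the cells of either library, all 4 among them. Microglia came from APPswe/PS1δE9 (PSAPP) mice, whose mutant APP and presenilin transgenes make them deposit β-amyloid. Both groups carried the transgenes, and no group without them was profiled here. Mice received oral gavage each day for 30 days, from 9 to 10 months of age, with vehicle (VEH) or with lemborexant (LEM), a dual orexin receptor antagonist used as a sleep drug, at 30 mg/kg. Live CD45lo CD11b+ cells of the cortex and hippocampus from 5 mice per group were pooled and sorted, and 1 library per group was made with a 10x Genomics 5′ kit.

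In the brain, glutamate released by neurons is cleared by sodium-driven carriers, chiefly of astrocytes, and is turned into glutamine by glutamine synthetase. *Slc1a3* encodes the glutamate carrier GLAST (EAAT1), best known from astrocytes and also made by microglia. *Slc1a5* encodes ASCT2, an exchanger of neutral amino acids that imports glutamine. *Slc7a11* encodes xCT, which pairs with the heavy chain encoded by *Slc3a2* to release glutamate in exchange for cystine, the source of cysteine for glutathione. *Glul* encodes glutamine synthetase.

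The VEH library held 18374 cells with a median of 5971 counts, and the LEM library held 24392 cells with a median of 6034 counts. Of the microglial marker genes, *P2ry12* stood at 4287 CPM (counts per 1000000 counts) in VEH and 4103 CPM in LEM, *Cx3cr1* at 3107 and 3056 CPM and *C1qa* at 8071 and 8546 CPM, with a count in 98.4% to 99.3% of cells, and the 10 astrocyte markers summed to 7.06 and 9.56 CPM. Both sexes were pooled in each library, and the number of mice of each sex in a pool was not given in the sources used here. Cells with an *Xist* count and no count of 4 Y-linked genes were called female, and the converse male, which gave 5686 female and 9025 male cells in VEH and 8409 female and 11223 male cells in LEM. These 4 sets of cells are called pools below. Cells with counts of both *Xist* and Y-linked genes (981 in VEH and 1764 in LEM) or of neither (2682 and 2996) are in no pool. Since each treatment has 1 library and no replicate, no test was made. All intervals are 95% intervals that cover counting error only and leave out the spread between mice, and n = 1 library applies to each value. Those of CPM and log2 ratios treat every count as independent, so they also leave out the spread between cells and are too narrow where counts are uneven over cells. Cells carry numbers and not barcodes in the table, so barcodes shared by the libraries were not counted.

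The windows upstream of the start are shown for *Slc1a3*, which of the 4 differed most between the libraries, and for *Slc7a11*, whose cells are compared below for targets of known stress regulators. RefSeq windows (GRCm38.p6) were matched for 3 of the 4 genes, without *Slc1a5*. Each line below gives the 250 bases before the RefSeq start, 5′ to 3′ on the gene's strand. Capitals mark TGATGCAA (an amino acid response element of the kind bound by ATF4) and TGANNNNGC, searched on both strands. TGANNNNGC is a loose form of the core of the antioxidant response element bound by NRF2, with the base after TGA left free. *Slc1a3* lies on chr15:8634124-8710764 on the minus strand and *Slc7a11* on chr3:49892526-50443614 on the minus strand. The windows are chr15:8710808-8711057 and chr3:50443614-50443863.
Slc1a3: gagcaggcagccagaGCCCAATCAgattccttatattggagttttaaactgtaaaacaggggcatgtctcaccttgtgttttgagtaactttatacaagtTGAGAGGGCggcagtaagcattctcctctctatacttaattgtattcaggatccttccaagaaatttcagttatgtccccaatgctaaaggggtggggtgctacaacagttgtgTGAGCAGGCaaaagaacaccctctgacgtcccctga
Slc7a11: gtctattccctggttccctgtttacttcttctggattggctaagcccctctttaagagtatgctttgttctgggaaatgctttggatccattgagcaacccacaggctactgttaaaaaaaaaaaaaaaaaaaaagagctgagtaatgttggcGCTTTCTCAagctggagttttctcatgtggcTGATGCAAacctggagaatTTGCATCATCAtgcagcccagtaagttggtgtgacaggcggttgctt
The *Slc7a11* window held 2 matches to TGATGCAA, 1 on each strand, a sequence held by 0.791% of 32851 windows of this length, whereas the *Slc1a3* window held none. TGANNNNGC matched 3 times in the *Slc1a3* window and 2 times in that of *Slc7a11*, where 1 match overlapped a TGATGCAA match, and 35.2% of all windows held it. The *Slc1a3* window also held 1 match to TGACGT, the core of the cyclic AMP response element, which 6.47% of windows held. The macrophage motif GAGGAAGT, of the kind bound by PU.1, was in neither window and in 2.44% of all. *Glul* (chr1:153899944-153909723, plus strand) held none of these 4 letter strings in its window. *Slc1a5* lies on chr7:16781340-16798274 on the plus strand.

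*Slc1a3*, the uptake carrier, was lower in the LEM library, and this held over all male cells, while all female cells together had the opposite sign. Its level was 1229 CPM (1223 to 1236) in VEH and 773 CPM (769 to 778) in LEM, a log2 ratio of -0.67 (-0.68 to -0.66). By pool, *Slc1a3* stood at 598 CPM in VEH female cells, 1636 CPM in VEH male cells, 794 CPM in LEM female cells and 767 CPM in LEM male cells. VEH male cells were thus the one high pool, and the lowest was also a VEH pool. The LEM over VEH log2 ratio was 0.41 in female cells and -1.09 in male cells. Female cells were below male cells in VEH by a log2 ratio of -1.45, and in LEM the ratio was 0.05. The spread between mice that would tell neighbouring pools apart was not measured.

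Over all cells *Slc1a3* was the 1 of 4 genes with a LEM over VEH log2 ratio of at least 0.5 in either direction, against 2.86% of the 11910 genes. In female cells 0 of 4 did, against 5.48% of genes, and in male cells 2 of 4 did (*Slc1a3* and *Slc7a11*), against 4.95%. Between female and male cells, 1 of 4 reached 0.5 in VEH (*Slc1a3*, against 5.42% of genes) and 0 of 4 in LEM (against 4.08%). The female and male LEM over VEH ratios of *Slc1a3* differed by 1.50, and 2.09% of genes differed by at least 1. Because the genes were chosen with these contrasts known, nothing is read from these counts.

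**Figure D1:**
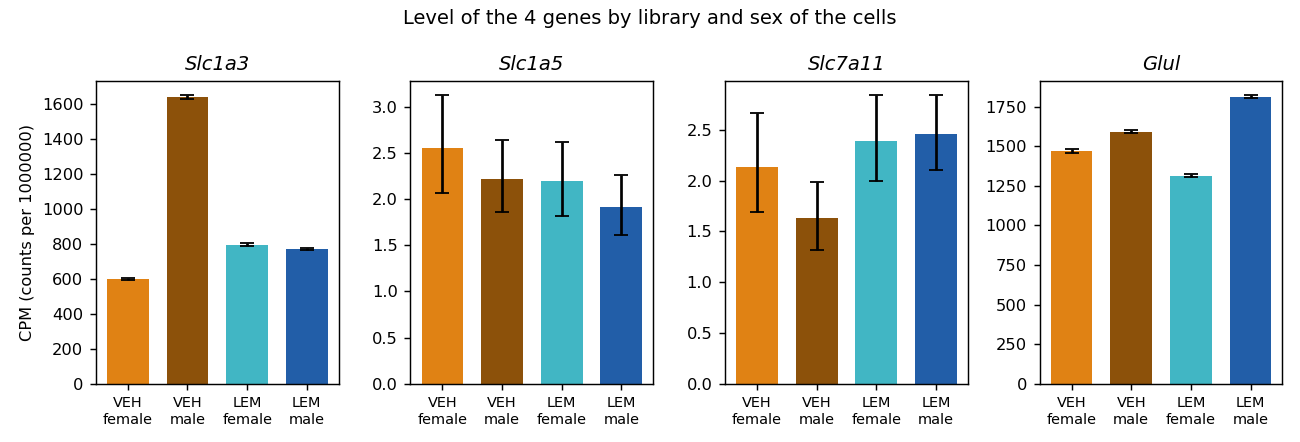
Level of each gene in CPM (vertical axis, a separate scale per gene) in the 4 pools of cells. Bars are the summed counts over the summed total and error bars are exact 95% Poisson intervals. VEH male cells stand above the other pools for *Slc1a3* (1636 CPM), and LEM male cells for *Glul* (1811 CPM).

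*Slc1a3* counts were spread unevenly over cells within each pool. At least 1 count was found in 72.0% of VEH female cells, 96.7% of VEH male cells, 77.8% of LEM female cells and 82.7% of LEM male cells. Cells were then thinned to 2000 counts each, which left out 1305 VEH and 1215 LEM cells that were shallower, and the 4 shares became 50.0%, 87.3%, 55.1% and 60.5%. The order of the pools was the same at equal depth. A constant rate per count over cells would leave 28.0% of thinned VEH female cells at 0, and 50.0% were at 0. In thinned VEH male cells 12.7% were at 0 against 3.49% at a constant rate, in LEM female cells 44.9% against 20.0%, and in LEM male cells 39.5% against 20.1%. The variance of the thinned counts was 2.56 to 3.34 times their mean in the 4 pools. As deposited, the median was 2 counts per cell in VEH female cells, 8 in VEH male cells, 2 in LEM female cells and 3 in LEM male cells, yet the 95th percentiles were 16, 28, 20 and 18 counts. VEH female and LEM female cells thus shared a median but differed in the upper tail and in the share at 0 (28.0% and 22.2% as deposited).

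For the free RNA that droplets take up, the nearest reference was the droplets gated on choroid plexus epithelial genes, 48 in VEH and 146 in LEM. *Slc1a3* was counted in 62.5% of them in VEH and 58.9% in LEM, at median depths of 9430 and 8109 counts, against 86.2% and 79.3% of all cells. These droplets also held microglial RNA: *P2ry12* was counted in 72.9% of them in VEH and 67.8% in LEM. They therefore gave no clean zero for any microglial gene. The 10 astrocyte markers summed to 6.19 to 10.6 CPM in the 4 pools, lowest in VEH female and highest in LEM male cells, and *Slc1a2*, the main astrocyte glutamate carrier, to 1.11 CPM in VEH and 1.12 CPM in LEM. In cells with 0 counts of these markers, *Slc1a3* stood at 1228 CPM in VEH and 775 CPM in LEM.

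**Figure D2:**
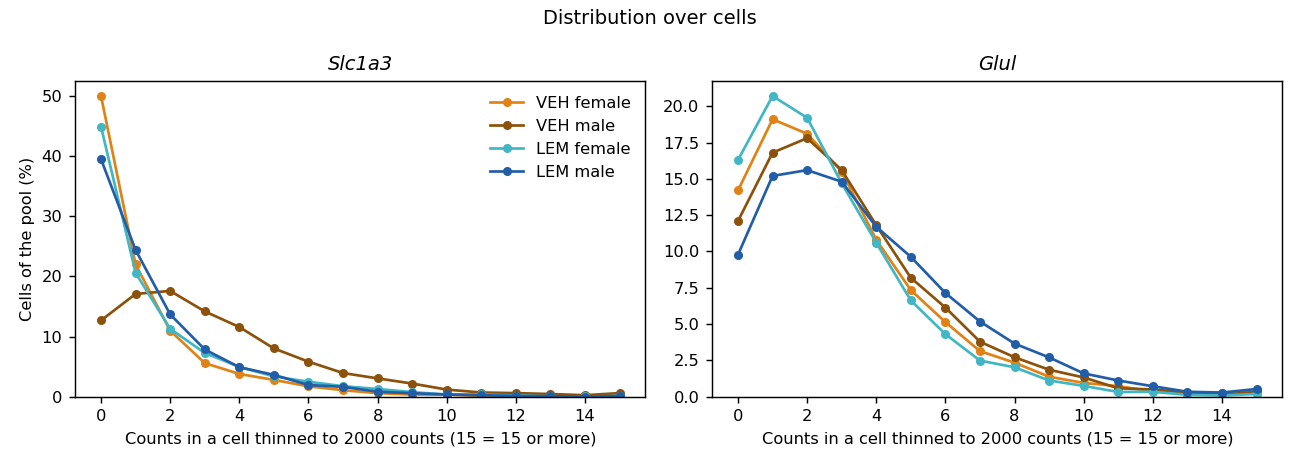
Share of cells (vertical axis, percent of the pool) by the number of *Slc1a3* or *Glul* counts in a cell thinned to 2000 counts (horizontal axis, 15 stands for 15 or more). For *Slc1a3*, VEH male cells peak at 2 counts and the other pools at 0, where 50.0% of VEH female cells lie, whereas the 4 *Glul* curves lie close together.

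The genes whose pattern over cells was most like that of *Slc1a3* were ranked by Pearson's r (log1p of counts per 10000, mean of the 4 pools) over 7526 genes counted in at least 10% of cells. *Rnaset2b*, a lysosomal ribonuclease gene, had the highest mean r at 0.25, followed by the ribosomal protein gene *Rps2* (0.16), *Hbegf*, which encodes an EGF receptor ligand (0.13), *Numb*, which encodes a Notch inhibitor (0.13), and *Ranbp3l* (0.13). The lowest were the chemokine receptor gene *Ccr6* (-0.17), *Ly6e* (-0.17), *Rnaset2a* (-0.14), *Qpct* (-0.11) and *Gm10260* (-0.11). All cells of a pool share 1 library, and after thinning the mean r fell to 0.15 for *Rnaset2b* and 0.10 for *Rps2*, so these are descriptions of weak relations. Of the 5 highest genes 2 (*Rnaset2b* and *Rps2*) and of the 5 lowest 3 (*Ccr6*, *Ly6e* and *Rnaset2a*) were among the 5 again after thinning. The sign of r was not shared by the pools for *Rps2* (-0.03 in VEH male cells), *Hbegf* (-0.02 in VEH male cells) and *Qpct* (0.12 in LEM male cells). *Rnaset2a* and *Rnaset2b* are near-identical copies, and how reads were split between them is uncertain, as it is for *Rps2*, which has many copies. LEM over VEH log2 ratios in female and male cells were 1.85 and -0.67 for *Rnaset2b* and 1.66 and -0.58 for *Rps2*. They were -1.49 and 0.80 for *Ccr6*, -0.51 and 0.41 for *Rnaset2a* and -1.14 and 2.14 for *Gm10260*. *Hbegf* (1.52 and 0.26), *Numb* (0.08 and 0.12), *Ly6e* (0.68 and 1.17) and *Qpct* (0.36 and 4.87) kept their sign. *Rnaset2b*, *Rps2*, *Ccr6*, *Rnaset2a* and *Qpct* lie on chromosome 17. The part of differences between mice in these relations was not tested. The relation to *Rnaset2b* differed among the pools, with r of 0.51 in VEH female, 0.01 in VEH male, 0.27 in LEM female and 0.20 in LEM male cells.

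*Slc1a3* was therefore compared in cells with and without a *Rnaset2b* count, a split chosen after these values were seen. In VEH female cells *Slc1a3* stood at 285 CPM (278 to 293) in the 3619 cells without *Rnaset2b* and at 1085 CPM (1068 to 1102) in the 2067 cells with it. In VEH male cells the order turned, with 1898 CPM without and 1607 CPM with *Rnaset2b*. LEM female cells had 629 CPM without and 810 CPM with it, and LEM male cells 495 and 866 CPM. Cells without *Rnaset2b* were shallower, with median depths of 6012, 4001, 3896 and 5420 counts in VEH female, VEH male, LEM female and LEM male cells against 6391, 6434, 6397 and 6342 with it. Over all VEH cells *Slc1a3* stood at 1399 CPM in cells of 2000 to 4000 counts and at 1153 CPM in cells of at least 8000, and the part of depth in the split was not tested. The share of cells with *Rnaset2b* itself was 36.4%, 84.7%, 86.2% and 69.2% in these 4 pools. Within cells that held *Rnaset2b*, the LEM over VEH log2 ratio of *Slc1a3* came to -0.42 for female cells against -0.89 for male cells, so the sign in female cells turned. Within cells without it, female cells gave 1.14 and male cells -1.94. How the mice of a pool differ from one another could not be told apart from treatment here, since cells are not labelled by mouse.

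**Figure D3:**
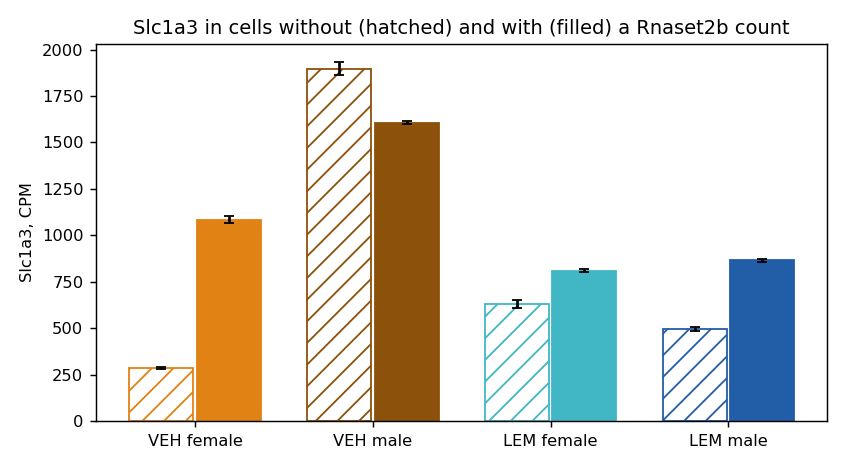
Level of *Slc1a3* (vertical axis, CPM) in cells without (hatched bars) and with (filled bars) a *Rnaset2b* count, in each of the 4 pools. Error bars are exact 95% Poisson intervals, and the pair is furthest apart in VEH female cells (285 and 1085 CPM).

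Around *Slc1a3* on chromosome 15, 10 other genes within 1000000 bases had a count in at least 1% of cells. Their LEM over VEH log2 ratios ran from -0.38 for *Ranbp3l* to 0.49 for *Spef2*, and none reached the -0.67 of *Slc1a3*. *Ranbp3l* (chr15:8967949-9067335) was the one neighbour also among the 5 genes most like *Slc1a3*, with r of 0.09 to 0.16 in the pools. *Ranbp3l* had a LEM over VEH log2 ratio of -0.57 in male cells but 0.03 in female cells, and in VEH its female cells lay below its male cells (-0.76). This was not particular to *Ranbp3l*: the female over male ratio in VEH was -0.68 for *Spef2* and -0.50 for *Il7r*. Among the neighbours it ran up to 0.32 for *Nadk2*.

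Cell states were gated on counts of marker genes that include none of the 4 genes. Homeostatic cells had counts of *P2ry12*, *Tmem119* and *Cx3cr1* and of at most 1 late gene of disease-associated microglia (DAM), the state microglia take around plaques. DAM cells had counts of at least 4 of 6 late DAM genes (*Cst7*, *Lpl* and *Itgax* among them) and intermediate cells of 2 or 3. A further planned late DAM gene was not analysed here. The homeostatic gate held 16004 VEH and 20871 LEM cells, the intermediate gate 878 and 1280, and the DAM gate 321 and 429. Gates by count follow depth, and median depth was 12194 counts in VEH and 12545 in LEM DAM cells against 5907 and 5945 in homeostatic cells.

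*Slc1a3* was slightly lower in DAM cells than in homeostatic cells of the same pool. It stood at 595 CPM in homeostatic and 534 CPM in DAM cells of VEH females, 1649 and 1403 CPM in VEH males, 825 and 664 CPM in LEM females, and 783 and 642 CPM in LEM males. The DAM over homeostatic log2 ratios were -0.16, -0.23, -0.31 and -0.29, beside a median of -0.31 over all genes tested. VEH male cells thus stood above the other pools in both gates by more than the gates differed, while the LEM pools differed from each other by less than their gates did. The intermediate over homeostatic ratios did not share a sign, at 0.21 (0.14 to 0.28) in VEH female, -0.04 in VEH male, -0.32 in LEM female and -0.22 in LEM male cells. In VEH female cells with 0, 1, 2, 3 and at least 4 late DAM genes counted, *Slc1a3* stood at 603, 584, 671, 718 and 534 CPM. Within homeostatic cells, the LEM over VEH log2 ratio was -0.64 over all cells, 0.47 in female and -1.07 in male cells, and within DAM cells it was 0.31 in female and -1.13 in male cells. The sign in female cells was not shared by the states, at -0.06 (-0.14 to 0.03) in the intermediate, -0.28 (-0.45 to -0.09) in the interferon and 1.14 (0.89 to 1.39) in the cycling gate, while male cells stood at -1.25, -0.79 and -1.31. In the cycling gate the *Slc1a3* log2 ratio over homeostatic cells was -0.55 in VEH (851 CPM) and -0.49 in LEM (566 CPM), and in the interferon gate -0.16 and -0.36. The interferon gate did not share a sign among pools, at -0.82 in LEM female and 0.03 in LEM male cells.

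*Glul*, the glutamine synthetase gene, was close in the libraries and lower in the DAM state. Its level was 1537 CPM (1530 to 1544) in VEH and 1581 CPM (1575 to 1587) in LEM, a log2 ratio of 0.04. By pool it was 1469 CPM in VEH female, 1592 in VEH male, 1314 in LEM female and 1811 in LEM male cells. LEM pools thus held both the lowest and the highest level, with a LEM over VEH log2 ratio of -0.16 for female cells against 0.19 for male cells. In cells without a *Rnaset2b* count these ratios were 0.02 (-0.02 to 0.05) and -0.03 (-0.07 to 0.00), and both intervals reach 0. A *Glul* count was found in 95.4% of the VEH cells and in 95.7% of the LEM cells, with a median of 8 counts per cell in each library, and in 81.2% and 83.6% of choroid plexus gated droplets.

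In the DAM gate *Glul* stood at 603 CPM in VEH female, 703 in VEH male, 644 in LEM female and 679 in LEM male cells, against 1564, 1673, 1401 and 1917 CPM in the homeostatic gate. The 4 DAM pools were close together, below every homeostatic pool. The DAM over homeostatic log2 ratios were -1.38, -1.25, -1.12 and -1.50. *Glul* was the 1 of 4 genes lower by at least 0.5 in each of the 4 pools, and 12.1% of all genes were. The levels were graded: in cells with 0, 1, 2, 3 and at least 4 late DAM genes counted, *Glul* stood at 1597, 1428, 1133, 756 and 603 CPM in VEH female cells. In LEM male cells the same steps were 1938, 1846, 1472, 1094 and 679 CPM. In VEH male cells they ran from 1703 to 703 CPM and in LEM female cells from 1418 to 644 CPM, without a rise at any step. With both gates limited to cells of at least 8000 counts, a choice made after the data were seen, the mean of the 4 log2 ratios was -1.26 in place of -1.31. The cycling gate was also low in *Glul*, at 750 CPM in VEH and 860 CPM in LEM (log2 ratios over homeostatic cells of -1.12 and -0.97), and the interferon gate lay between, at 1262 and 1203 CPM.

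**Figure D4:**
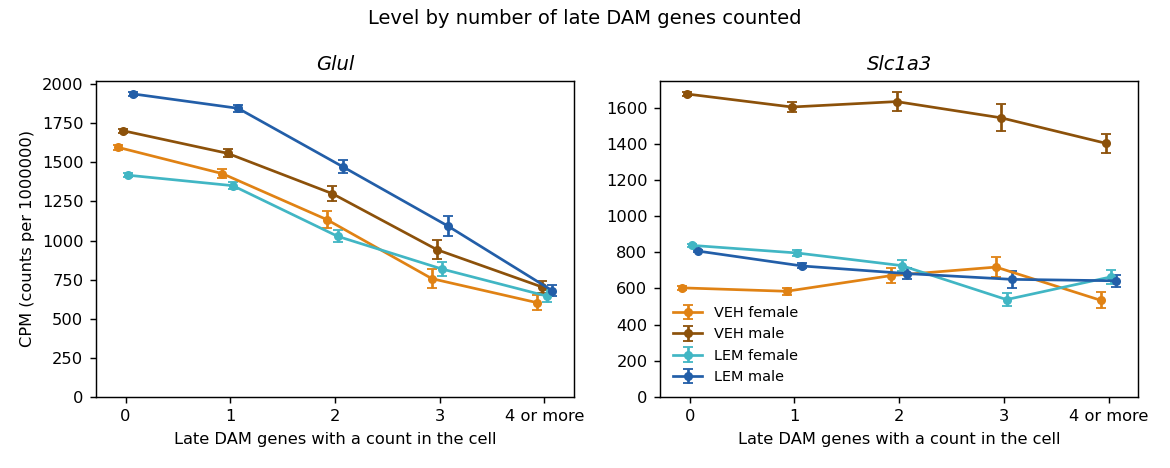
Level of *Glul* (left) and *Slc1a3* (right) in CPM by the number of late DAM genes with a count in the cell, for the 4 pools, without cells of the cycling, interferon, border-associated macrophage and choroid plexus gates. Error bars are exact 95% Poisson intervals. *Glul* is lower at each step in all 4 pools, down to 603 to 703 CPM, while for *Slc1a3* VEH male cells lie above the other pools at each step.

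The genes most like *Glul* over cells, listed after the values were seen, were the small GTPase gene *Rhob* (mean r 0.22), the immediate early genes *Jun* (0.20) and *Zfp36* (0.20), the homeostatic receptor gene *P2ry12* (0.20) and the histone gene *H3f3b* (0.19). Each pool gave r between 0.17 and 0.24 for these genes. After thinning the mean r was 0.14 for *Rhob*, 0.15 for *Jun*, 0.13 for *Zfp36* and 0.12 for *P2ry12* and *H3f3b*, and *P2ry12* was no longer among the 5 highest. The lowest were *Cd74* (-0.13), of antigen presentation, *Ank* (-0.13), the chemokine genes *Ccl3* (-0.12) and *Ccl4* (-0.11), and *Plaur* (-0.11), which was not among the 5 lowest after thinning. *Glul* and *Slc1a3* were nearly unrelated cell by cell, with r of -0.04, 0.07, -0.08 and 0.13 in VEH female, VEH male, LEM female and LEM male cells. *Glul* overlaps *Teddm2*, on the opposite strand, which held 416 counts in both libraries together.

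*Slc1a5*, the glutamine importer, was sparse. It had 275 counts in 260 VEH cells (2.37 CPM, 2.09 to 2.66) and 326 counts in 309 LEM cells (2.03 CPM, 1.81 to 2.26). The log2 ratio was -0.22, and its interval of -0.46 to 0.01 includes 0. The share of cells with a count was 1.42% in VEH and 1.27% in LEM. Of the choroid plexus gated droplets, 0 of 48 held a count in VEH (up to 7.40%). In LEM 6 of 146 did (4.11%, 1.52 to 8.73). The share of cells was not above that of these droplets in LEM and lay within their interval in VEH. These droplets were few and deeper than the cells, so this measure cannot tell free RNA from low expression. By state it stood at 2.07 CPM in homeostatic, 3.68 in intermediate and 5.22 CPM in DAM cells of VEH, and at 1.70, 3.05 and 4.88 CPM in LEM. The DAM over homeostatic log2 ratio was 1.33 (lower bound 0.59) in VEH from 20 DAM counts and 1.52 (0.88 to 2.11) in LEM from 26. Cycling cells stood at 5.37 CPM in VEH and 5.33 CPM in LEM, from 8 and 12 counts. The gate of border-associated macrophages was the highest, at 17.9 CPM (4.89 to 45.9) in VEH and 9.48 CPM (3.08 to 22.1) in LEM, from 4 counts in 23 cells and 5 in 62. By pool the ratio was 0.31 (-2.00 to 1.92) in VEH female cells from 3 counts, 1.64 in VEH male, 1.50 in LEM female and 1.77 in LEM male cells, so the VEH female value does not give a direction. In the 569 cells with *Slc1a5*, *Glul* stood at 1295 CPM against 1567 CPM in the other cells. These cells were also deeper, with a median of 7229 against 5992 counts, and *Glul* in VEH was 1415 CPM in cells of at least 8000 counts against 1631 CPM at 4000 to 6000. The part of depth in this difference was not tested.

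*Slc7a11*, the cystine and glutamate exchanger, was as sparse, and its level was higher in the LEM library. It had 212 counts in 192 VEH cells (1.82 CPM, 1.59 to 2.09) and 366 counts in 327 LEM cells (2.28 CPM, 2.05 to 2.52), a log2 ratio of 0.32 (0.07 to 0.57). By pool it was 2.14 CPM in VEH female, 1.63 in VEH male, 2.39 in LEM female and 2.46 CPM in LEM male cells, where the intervals of VEH female cells (1.69 to 2.67) and both LEM pools overlapped. Female cells gave a log2 ratio of 0.16 (-0.25 to 0.59), and male cells one of 0.59 (0.23 to 0.97). Single counts made up most of the signal: 175 of the 192 VEH cells and 299 of the 327 LEM cells held 1 count. The share of 1.04% in VEH and 1.34% in LEM lay within the interval of the choroid plexus gated droplets (1 of 48 and 1 of 146). With so few and deeper droplets, this leaves free RNA and low expression indistinct. *Slc3a2*, which encodes the partner chain, stood at 334 CPM in VEH and 337 CPM in LEM. The DAM over homeostatic log2 ratios were 0.30 (-0.94 to 1.31) in VEH and -0.26 (-1.34 to 0.64) in LEM, from 8 and 10 DAM counts. The intermediate gate lay above the homeostatic gate in each of the 4 pools, by 0.46 to 0.86, with ratios of 0.63 (-0.11 to 1.31) in VEH and 0.44 (-0.11 to 0.95) in LEM, and the intervals of all these ratios include 0. *Slc7a11* and *Slc1a5* were counted together in 5 VEH and 6 LEM cells.

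*Slc7a11* cells of the LEM library held more counts of *Chac1* and *Srxn1* per total than the other LEM cells, genes named after their values were seen. *Chac1*, an ATF4 target that degrades glutathione, had 16 counts in 9 of the 327 LEM cells with *Slc7a11* (5.97 CPM) against 79 counts in 61 of the 24065 other LEM cells, a log2 ratio of 3.58 (2.70 to 4.36). In the 192 VEH cells with *Slc7a11* it had 0 counts, which allows a log2 ratio of up to 3.18. *Srxn1*, an NRF2 target that repairs peroxiredoxins, had 34 counts in 10 LEM cells with *Slc7a11* (12.7 CPM against 2.01 CPM elsewhere, log2 ratio 2.66) and 3 counts in 3 VEH cells (1.87 CPM with and without). The LEM excess lay in few cells: the 7 LEM cells with at least 3 *Slc7a11* counts held 20 of the 34 *Srxn1* counts in 3 cells, 11 of them in 1 cell, and 1 cell with 2 *Slc7a11* counts held a further 8. LEM cells with *Slc1a5* also stood higher in *Srxn1*, at 8.59 CPM against 2.08 CPM in the other cells (log2 ratio 2.05, 1.37 to 2.66). VEH cells with *Slc1a5* gave 0.01 (-1.88 to 1.38), from 4 *Srxn1* counts. The LEM value rests on 23 *Srxn1* counts, and how many of the 309 cells held them was not counted. Its interval treats counts of the same cell as independent. *Gclm*, a subunit of the enzyme that starts glutathione synthesis, stood at 49.2 CPM with and 32.2 CPM without *Slc7a11* in LEM (log2 ratio 0.61, 0.35 to 0.86), and at 28.1 and 31.9 CPM in VEH. *Hmox1* (0.35, 0.09 to 0.60), *Txnrd1* (0.32, 0.03 to 0.60), *Slc7a5* (0.33, 0.06 to 0.59) and *Slc3a2* (0.13, 0.04 to 0.23) were also higher in LEM cells with *Slc7a11*, by less. For *Txnrd1*, 11 of the 106 counts lay in 1 cell. The share of cells with a *Txnrd1* count was 19.3%, against 17.3% of the other LEM cells. *Atf4* at 0.07, *Ddit3* at 0.02, *Nfe2l2* at 0.03 and *Gclc* at 0.15 had intervals that include 0, as had *Trib3*, with 2 counts (0.95, -2.13 to 2.87). LEM cells with *Slc1a5* were also higher in *Txnrd1* (0.38, 0.09 to 0.65), *Slc7a5* (0.37, 0.10 to 0.62) and *Slc3a2* (0.14, 0.05 to 0.23). These genes were thus higher in both sets of LEM cells. The 6 LEM cells that held both *Slc7a11* and *Slc1a5* were not left out, so the 2 sets are not independent. For *Hmox1* (0.10, -0.19 to 0.37) and *Gclm* (0.28, -0.02 to 0.56) the intervals in LEM cells with *Slc1a5* include 0. In VEH cells with *Slc7a11*, *Gclc* (-0.36, -0.69 to -0.06) and *Gpx1* (-0.15, -0.26 to -0.05) stood lower and *Gpx4* (0.18, 0.05 to 0.32) higher than in other VEH cells, and *Txnrd1* gave 0.29 (-0.12 to 0.67). Whether the libraries differ in these ratios was not tested. *Slc7a11* cells were deeper than other cells, with medians of 7260 and 5990 counts over both libraries. The *Chac1* window held 1 match to TGATGCAA and the *Srxn1* window 3 to TGANNNNGC, as described for *Slc7a11* above.

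The wider set of 79 glutamate handling genes, in 5 lists, gave 43 genes with a count in at least 1% of cells. Over all cells none of the 43 reached a LEM over VEH log2 ratio of 0.5 in either direction. Within the sexes 1 receptor gene did in female cells (*Grik4*, 1.16) and 1 in male cells (*Grm3*, 0.57), against the 5.48% and 4.95% of all genes given above. The median of the 43 over all cells was 0.03, beside 0.01 over all genes tested, with 27 above 0 and 16 below. Of the 14 other carriers, *Slc3a2* and *Slc7a8*, a neutral amino acid carrier (230 CPM in VEH and 228 in LEM), were the most often counted. Of the 9 enzymes, *Glud1*, which encodes glutamate dehydrogenase, stood at 108 CPM in VEH and 109 CPM in LEM. The most often counted of the 8 glutathione genes were *Gpx1* (504 and 554 CPM) and *Gpx4* (250 and 252 CPM), the glutathione peroxidases, and among the 8 regulators *Nfe2l2*, which encodes NRF2 (272 and 257 CPM), and *Atf4* (133 and 122 CPM). Of the 22 glutamate receptors 4 were tested, and the kainate receptor gene *Grik3* had a count in 83.8% of the VEH cells and in 83.4% of the LEM cells (535 and 451 CPM, log2 ratio -0.24). *Grik4* (3.26 and 4.55 CPM) was the other most counted receptor gene by share of cells, and its log2 ratio of 0.48 equalled that of *Grm3* as the highest of the 43.

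By state, 4 of the 43 genes were lower by at least 0.5 in DAM cells of all 4 pools, as *Glul* was, against 12.1% of all genes. They were *Slc1a4*, a neutral amino acid exchanger of the same family as *Slc1a3* (log2 ratios of -1.26 to -2.53 with 0.5 added to each sum), *Slc7a7*, a cationic and neutral amino acid carrier (-0.67 to -0.99), *Ggt5*, which cleaves extracellular glutathione conjugates (-1.83 to -2.30), and *Bach1*, a repressor of NRF2 targets (-0.60 to -0.77). *Slc1a4* rested on 1 to 3 DAM counts per pool. Without the added 0.5 its ratios were -1.48 to -3.11, with intervals that include 0 in VEH female and LEM male cells. Another 4 were higher by at least 0.5 in DAM cells of all 4 pools, against 5.83% of all genes. They were *Psat1*, which draws on glutamate to make serine (3.44 to 4.27), *Got1*, which links glutamate and aspartate (1.12 to 1.49), *Hmox1*, which encodes heme oxygenase 1 (0.61 to 0.83), and *Grik3* (0.62 to 0.85). The median over the 43 was -0.16, beside -0.31 over all genes.

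**Figure D5:**
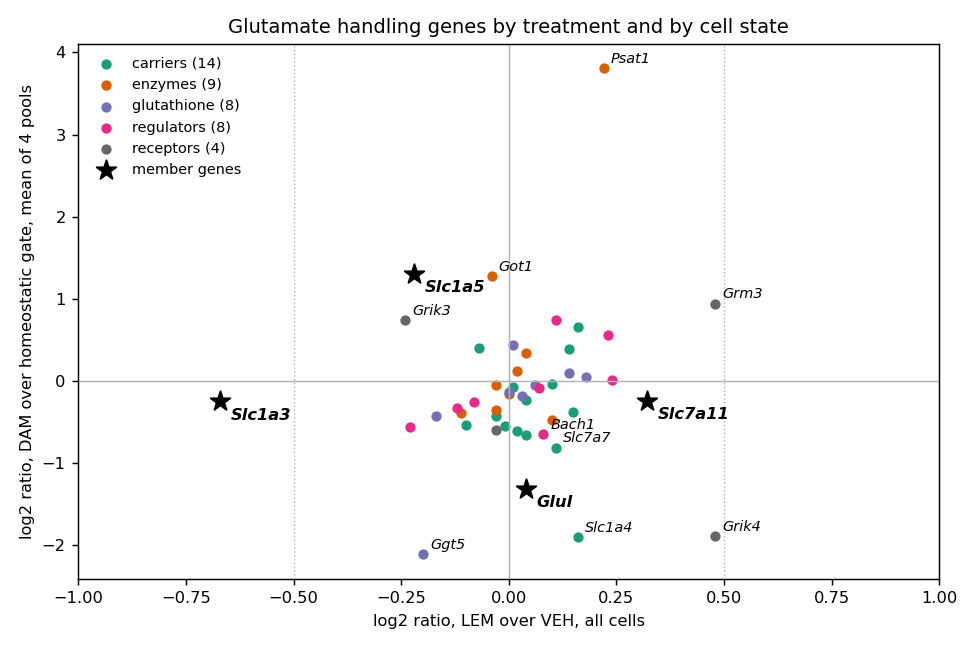
Each point is a gene: the horizontal axis gives the LEM over VEH log2 ratio over all cells and the vertical axis the log2 ratio of DAM over homeostatic cells, as the mean of the 4 pools. Colours mark the lists, with the number of genes tested in the legend, stars the 4 genes described here, and dotted lines a log2 ratio of 0.5 either way. On the vertical axis, 0.5 was added to the sums of list genes but not to those of the stars. *Slc1a3* lies to the left at -0.67, and *Glul* is the lowest star at -1.31, with the list genes *Ggt5*, *Slc1a4* and *Grik4* below it. The stars of *Slc1a5* and *Slc7a11* rest on 1 to 12 DAM counts per pool.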

How the data were processed

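The authors aligned 10x 5′ reads with Cell Ranger 8.0.0 to mm10, per the submitters' processing notes, and their methods state removal of ambient RNA with SoupX and filters on genes, counts and mitochondrial RNA per cell. The deposited values are whole-number UMI counts for 32285 genes in 42766 cells, with at least 501 genes, at most 19999 counts and at most 2.50% mitochondrial counts in a cell. Whether SoupX correction is in these whole counts was not stated, and it could lower counts of abundant genes. The 4 genes, the lists and the gates were chosen with earlier results of these data known.

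Counts were summed per library, sex call and gate and divided by the total (CPM). CPM have exact Poisson intervals, shares exact Clopper-Pearson intervals, and log2 ratios exact conditional binomial intervals, at 95%. For counts of genes past a log2 ratio, 0.5 was added to each sum. Cells passed gates in the order choroid plexus, border-associated macrophage, cycling, interferon, DAM, intermediate, homeostatic. Named beside the 4 genes were list genes past 0.5 and the 2 most detected of each list, and the 5 genes most and least like *Slc1a3*. Some genes of these lists are not reported here. Neither the deposited table nor the stated methods mark doublets. Scrublet (scanpy 1.11.5) found no working threshold in VEH (0 automatic calls, against 3113 in LEM), so the top 10.0% of scores per library were left out as an alternative. The interval code was tested on simulated Poisson counts. These had no spread between cells or mice, so the test does not show how the intervals perform on the real counts. Python 3.11.15, numpy 2.4.6 and scipy 1.17.1 were used. Gene positions are from GENCODE M21 (GRCm38).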

Additional observations from a re-analysis of the deposited data

Results flagged for a closer look

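*Slc1a3* had a LEM over VEH log2 ratio of 0.41 in female cells and -1.09 in male cells, and *Glul* one of -0.16 in female and 0.19 in male cells. Both were marked because the sexes moved in opposite directions, each with a counting interval that left out 0. With 1 pool per sex and treatment the difference between the sexes was not tested.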

How the results depend on the processing

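Of 128 recomputed values of the 4 genes and their lists, 92 stayed within the counting interval or the spread over pools of the value reported. For *Slc1a3*, the LEM over VEH log2 ratio of -0.67 became -0.69 as a mean over cells, -0.52 with the sexes weighted equally, -0.64 in the homeostatic gate, -0.81 in cells with and -0.34 in cells without *Rnaset2b*. Its ratio in female cells of 0.41 became 0.44 with 2 counts for a sex call, 0.51 without the highest doublet scores, 0.34 after thinning and 0.47 in the homeostatic gate, and it reversed to -0.42 in cells with *Rnaset2b* against 1.14 without. Its ratio in male cells of -1.09 became -1.07 with 2 counts for a sex call and in the homeostatic gate, -1.06 after thinning, -0.89 with and -1.94 without *Rnaset2b*. Its difference in share of cells, -6.92 percentage points, became -13.7 for at least 2 counts and -15.4 after thinning.

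The DAM over homeostatic mean of *Slc1a3*, -0.25, became -0.53 with at least 5 late DAM genes and -0.38 after thinning, and that of *Glul*, -1.31, became -1.13 with at least 3, -1.51 with at least 5 and -1.73 after thinning. For the thinned values the gates were made anew on thinned counts, which left 46 DAM cells in VEH and 61 in LEM. They are thus a stricter gate on few cells. *Glul* in female cells went from -0.16 to -0.11 with and 0.02 without *Rnaset2b*, and in male cells from 0.19 to 0.24 with and -0.03 without, where the intervals in cells without it reach 0. *Slc1a5*, at -0.22 over all cells and in male cells, gave 0.02 and 0.39 after thinning and -0.53 and -0.64 without *Rnaset2b*. *Slc7a11* in female cells went from 0.16 to 0.73 with and -0.44 without *Rnaset2b*, and in male cells from 0.59 to 1.08 without. Its share difference went from 0.296 to 0.0223 percentage points for at least 2 counts, and its DAM over homeostatic ratio in VEH from 0.30 to 2.89 after thinning, which rests on 1 count in 46 cells. After thinning, the LEM DAM gate held 0 *Slc7a11* counts in 61 cells and *Slc1a5* had 0 in either library, so these ratios have no value. The cause of these moves was not tested.

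The split by *Rnaset2b*, the homeostatic gate for treatment and the limit of 8000 counts were chosen after the data were seen. The sparse genes are limited by their 212 to 366 counts per library, and every interval leaves out the spread between mice. No paired analysis was possible because each treatment has 1 library.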
